A study of Mus musculus with 12 samples.

Results

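Members of the unfolded protein response and of the integrated stress response were followed in the livers of wildtype and Socs2-null mice before and after partial hepatectomy. The set holds 35 genes of the 17097 measured. They were listed by symbol, and each was read from the probe set annotated to it alone with the highest mean log2 level over all arrays. By role they are 15 chaperones and foldases of the endoplasmic reticulum (ER), 3 ER stress sensors, 4 transcription factors, 5 targets of the factors ATF4 and CHOP, and 8 genes of ER-associated degradation and translocation. A single probe set was available for 16 of them.

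The wildtype animals were adult C57BL/6 mice, and the Socs2-null animals were adults kept on the same C57BL/6 background. The protein made from Socs2 dampens growth hormone signals, and the study addresses liver regrowth without it. Liver was taken at 0 h without an operation, and at 24 h and 36 h after 2/3 hepatectomy, which gave 6 groups of 2 arrays. Each array carried RNA pooled from 3 animals, so replicates 1 and 2 of a group are different pools and no spread between single animals was measured. No group had a sham operation, and liver loss, surgery and hour of harvest cannot be told apart in the comparisons over time. The sources used here name neither the sex nor the deleted part of Socs2.

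The ER folds secreted and membrane proteins, of which hepatocytes make large amounts for the blood plasma. When unfolded proteins accumulate there, the sensor kinase IRE1 (gene Ern1) splices the Xbp1 mRNA, ATF6 is cut to release a transcription factor, and the kinase PERK (gene Eif2ak3) phosphorylates the translation factor eIF2α. The integrated stress response is the part that starts with eIF2α, and other kinases can also start it when amino acids or haem are short. Phosphorylated eIF2α lowers general translation and favours translation of ATF4, which with CHOP (gene Ddit3) induces genes of amino acid supply. XBP1 and ATF6 bind ER stress elements in the promoters of chaperone genes, while ATF4 with C/EBP proteins binds composite C/EBP-ATF elements.

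Promoter sequences were taken from RefSeq (build GRCm38.p6, 250 bases before to 50 bases after each gene start) and held 31 of the 35 genes; Hyou1, Atf6, Manf and Derl1 were not matched. The ER stress element, CCAAT and CCACG with 9 bases of any kind between them on either strand, was found in 9 of the 31 (29.0 %) and in 37 of all 27025 genes with a promoter (0.137 %). The 9 genes were Hspa5, Hsp90b1, Calr, Canx, Pdia6, Dnajc3 and Creld2 among the chaperones, and Derl3 and Syvn1 among the degradation genes. ER stress element II, ATTGG and CCACG with 1 base of any kind between them, was found in Dnajb11 and Herpud1, and in 0.0444 % of all genes. The core TGACGTG was found in Hspa5 alone, and in 2.22 % of all genes. The composite element TGATGNAA was found in Chac1, Asns, Trib3, Slc7a11 and Herpud1, which is 16.1 % of the 31 against 4.51 % of all genes. The 35 genes were listed as members of responses known to act through these elements, so a higher share than among all genes was built into the list. A match is a run of letters and not a measured binding site, and no match was read as absence of binding. The motif lists were searched with overlaps between motifs allowed.

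Bases upstream of the start are shown, 5′ to 3′ on the gene's strand with motif bases in capitals, for the central chaperone genes Hspa5 and Hsp90b1, for Creld2 and Derl3, for Canx, which holds the element but did not rise, and for Chac1, which holds the composite element. The windows are chr2:34771890-34772089 (plus strand) for Hspa5, chr10:86705445-86705694 (minus strand) for Hsp90b1, chr15:88819496-88819645 (plus strand) for Creld2, chr10:75893198-75893397 (plus strand) for Derl3, chr11:50325674-50325823 (minus strand) for Canx and chr2:119351042-119351241 (plus strand) for Chac1. Capitals mark the TGACGTG core and the ER stress element in Hspa5, 2 ER stress elements in Hsp90b1, 1 each in Creld2, Derl3 and Canx, and the composite element in Chac1.
Hspa5: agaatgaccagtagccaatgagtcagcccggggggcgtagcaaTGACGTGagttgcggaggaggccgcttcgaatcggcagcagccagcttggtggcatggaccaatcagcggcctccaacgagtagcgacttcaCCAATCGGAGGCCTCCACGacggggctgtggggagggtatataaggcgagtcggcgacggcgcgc
Hsp90b1: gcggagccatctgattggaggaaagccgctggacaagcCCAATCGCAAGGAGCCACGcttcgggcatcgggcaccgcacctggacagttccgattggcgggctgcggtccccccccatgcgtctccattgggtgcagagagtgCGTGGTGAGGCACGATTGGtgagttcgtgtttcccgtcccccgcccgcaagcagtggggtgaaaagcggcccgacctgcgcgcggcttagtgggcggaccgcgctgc
Creld2: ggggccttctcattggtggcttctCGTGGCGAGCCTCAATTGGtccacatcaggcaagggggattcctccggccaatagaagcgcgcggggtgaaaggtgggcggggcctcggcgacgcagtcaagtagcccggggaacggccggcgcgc
Derl3: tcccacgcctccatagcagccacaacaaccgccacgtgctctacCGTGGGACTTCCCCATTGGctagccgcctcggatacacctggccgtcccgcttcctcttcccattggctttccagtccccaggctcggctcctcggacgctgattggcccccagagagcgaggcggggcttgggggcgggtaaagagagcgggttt
Canx: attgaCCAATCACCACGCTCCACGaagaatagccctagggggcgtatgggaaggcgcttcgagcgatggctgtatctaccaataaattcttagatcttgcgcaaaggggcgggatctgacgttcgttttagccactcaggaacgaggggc
Chac1: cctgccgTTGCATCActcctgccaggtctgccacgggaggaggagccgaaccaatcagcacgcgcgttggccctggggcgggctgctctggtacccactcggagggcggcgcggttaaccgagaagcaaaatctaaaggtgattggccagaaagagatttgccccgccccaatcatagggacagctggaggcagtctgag
Of the 9 genes with the ER stress element, 5 rose in wildtype liver at 24 h, 1 at 36 h, 7 in Socs2-null liver at 24 h and 6 at 36 h. Of the 5 genes with the composite element, 1 rose in wildtype liver at 24 h, 2 rose in Socs2-null liver at 24 h and 0 rose at 36 h in either genotype. Of all genes tested 10.2 % and 5.69 % rose at 24 h and 36 h in wildtype liver and 10.8 % and 9.84 % in Socs2-null liver, and of the brighter 50 % of them 18.4 %, 10.1 %, 18.7 % and 16.8 % did. The 1 of 9 in wildtype liver at 36 h is near these shares, as is the 1 of 5 at 24 h.

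Values are processed intensities in arbitrary units, given for replicate 1 and then replicate 2. Median intensities of the 12 arrays lay between 43.5 and 52.3, and the brightest of 17 tag control probe sets, taken as background, lay between 33.0 and 45.0. Socs2 read between 116 and 546 on the wildtype arrays and between 23.2 and 29.5 on the Socs2-null arrays, so the targeted gene was lower on every array labelled Socs2-null. The summed level of 9 hepatocyte markers was 106342 to 108630 at 0 h and lower on every array after hepatectomy, 95843 to 101415. Hybridization controls, RNAs added before hybridization, differed between times, by -0.20 and -0.82 on the log2 scale at 24 h and 36 h against 0 h in wildtype liver and by -0.38 and -0.79 in Socs2-null liver. They were tested as a covariate in the model, and each adjusted p that crossed 0.05 with it is given beside its gene. The covariate was fitted on the differences between the arrays of a group. These were smaller than the shifts at 36 h, so estimates at 36 h with the covariate are extrapolated. The small number of arrays limits precision throughout.

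At 24 h after hepatectomy 11 of the 15 ER chaperones and foldases rose in wildtype liver and 13 in Socs2-null liver, and at 36 h more of the 35 genes passed the test for a rise in Socs2-null than in wildtype liver. In wildtype liver 15 of the 35 genes rose at 24 h and 1 fell, where 10.2 % of all genes rose and 15.6 % fell. In Socs2-null liver 19 rose and 0 fell at 24 h, where 10.8 % of all genes rose and 13.5 % fell. Called genes are those with a Benjamini-Hochberg adjusted p under 0.05 in limma over all 17097 genes. Centring each array on its median moved the median of all genes by 0.12 on the log2 scale at 24 h in wildtype liver, and turned the split of all genes from 1752 higher and 2665 lower to 2595 and 1378. In Socs2-null liver at 24 h the split went from 1844 and 2302 to 2448 and 1592. Of the genes that rose at 24 h, 13 were called in both genotypes, which is 13 of 15 and 13 of 19. In bulk liver RNA fewer cells of a type and less RNA per cell cannot be told apart.

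At 36 h in wildtype liver 4 of the 35 genes rose and 1 fell, against 5.69 % and 9.50 % of all genes. At 36 h in Socs2-null liver 14 rose and 0 fell, against 9.84 % and 10.1 % of all genes. After centring the splits of all genes at 36 h went from 973 higher and 1624 lower to 1197 and 1046 in wildtype liver, and from 1682 and 1733 to 1895 and 1435 in Socs2-null liver. All 4 that rose in wildtype liver were among the 14. The count in Socs2-null liver was 7 once replicate 2 of Socs2-null 0 h was left out and 8 once replicate 2 of Socs2-null 36 h was, and the count of 5 in wildtype liver was 2 without wildtype 0 h replicate 1 or replicate 2 and 3 without wildtype 36 h replicate 1. With the hybridization controls as a covariate 21 of the 35 rose and 2 fell in wildtype liver at 24 h, with 7 calls gained and 0 lost, and 1 rose at 36 h, with 1 gained and all 5 lost. In Socs2-null liver 20 rose at 24 h, with 5 gained and 4 lost, and 11 at 36 h, with 6 gained and 9 lost. Whether the genotypes differed was tested on the difference of their responses, which is given further on and in which none of the 35 passed.

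As 33 of the 35 genes lie among the brighter 50 % of all genes, the share of those is the nearer background. Of the brighter genes 18.4 % rose at 24 h and 10.1 % at 36 h in wildtype liver, and 18.7 % and 16.8 % did in Socs2-null liver. Of the 35 genes 42.9 %, 11.4 %, 54.3 % and 40.0 % rose, in the same order, so the wildtype share at 36 h was near its background. The median log2 change of the 35 was 0.70 at 24 h and 0.13 at 36 h in wildtype liver and 0.75 and 0.57 in Socs2-null liver. Over all genes these medians were -0.080, -0.065, -0.039 and -0.026.

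**Figure D1:**
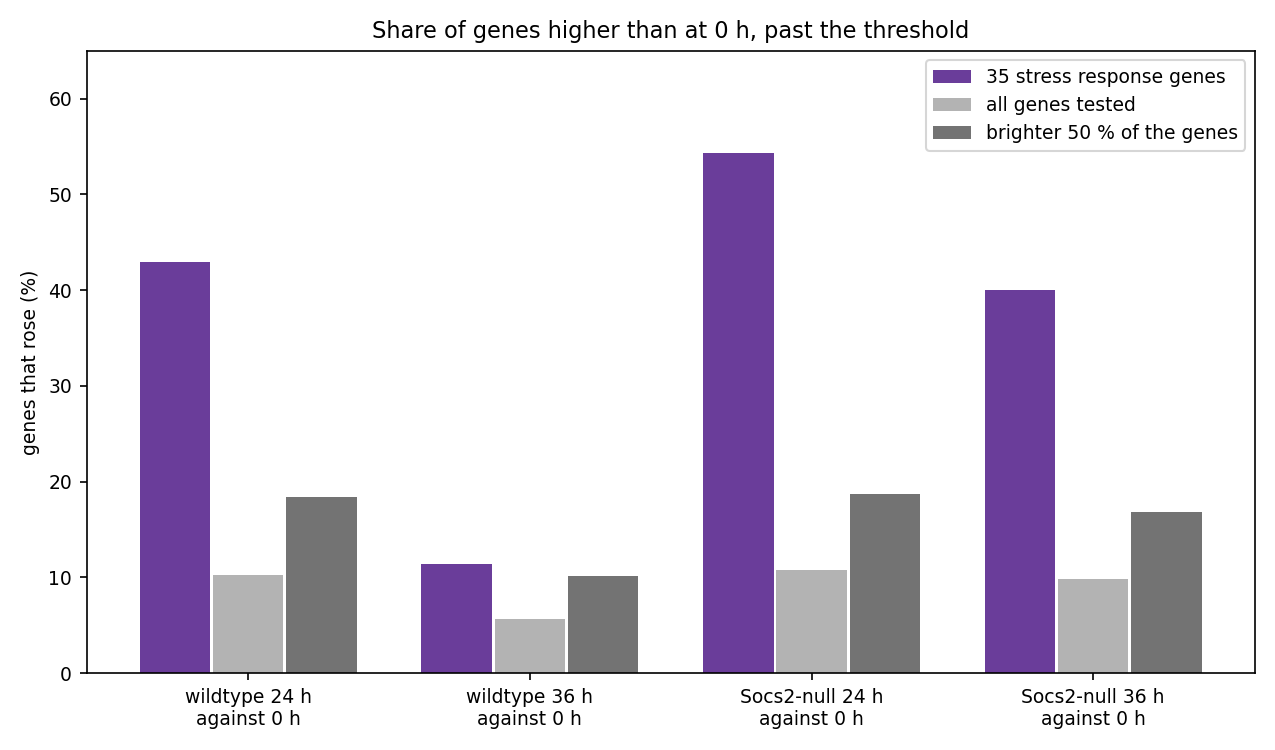
Share of genes in percent that rose against 0 h (limma, adjusted p under 0.05), for the 35 stress response genes, all 17097 genes and the brighter 50 % of them, in each genotype and time. The 35 genes stood at 42.9 %, 11.4 %, 54.3 % and 40.0 %, and only at 36 h in wildtype liver was their share near that of the brighter genes, 10.1 %.

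**Figure D2:**
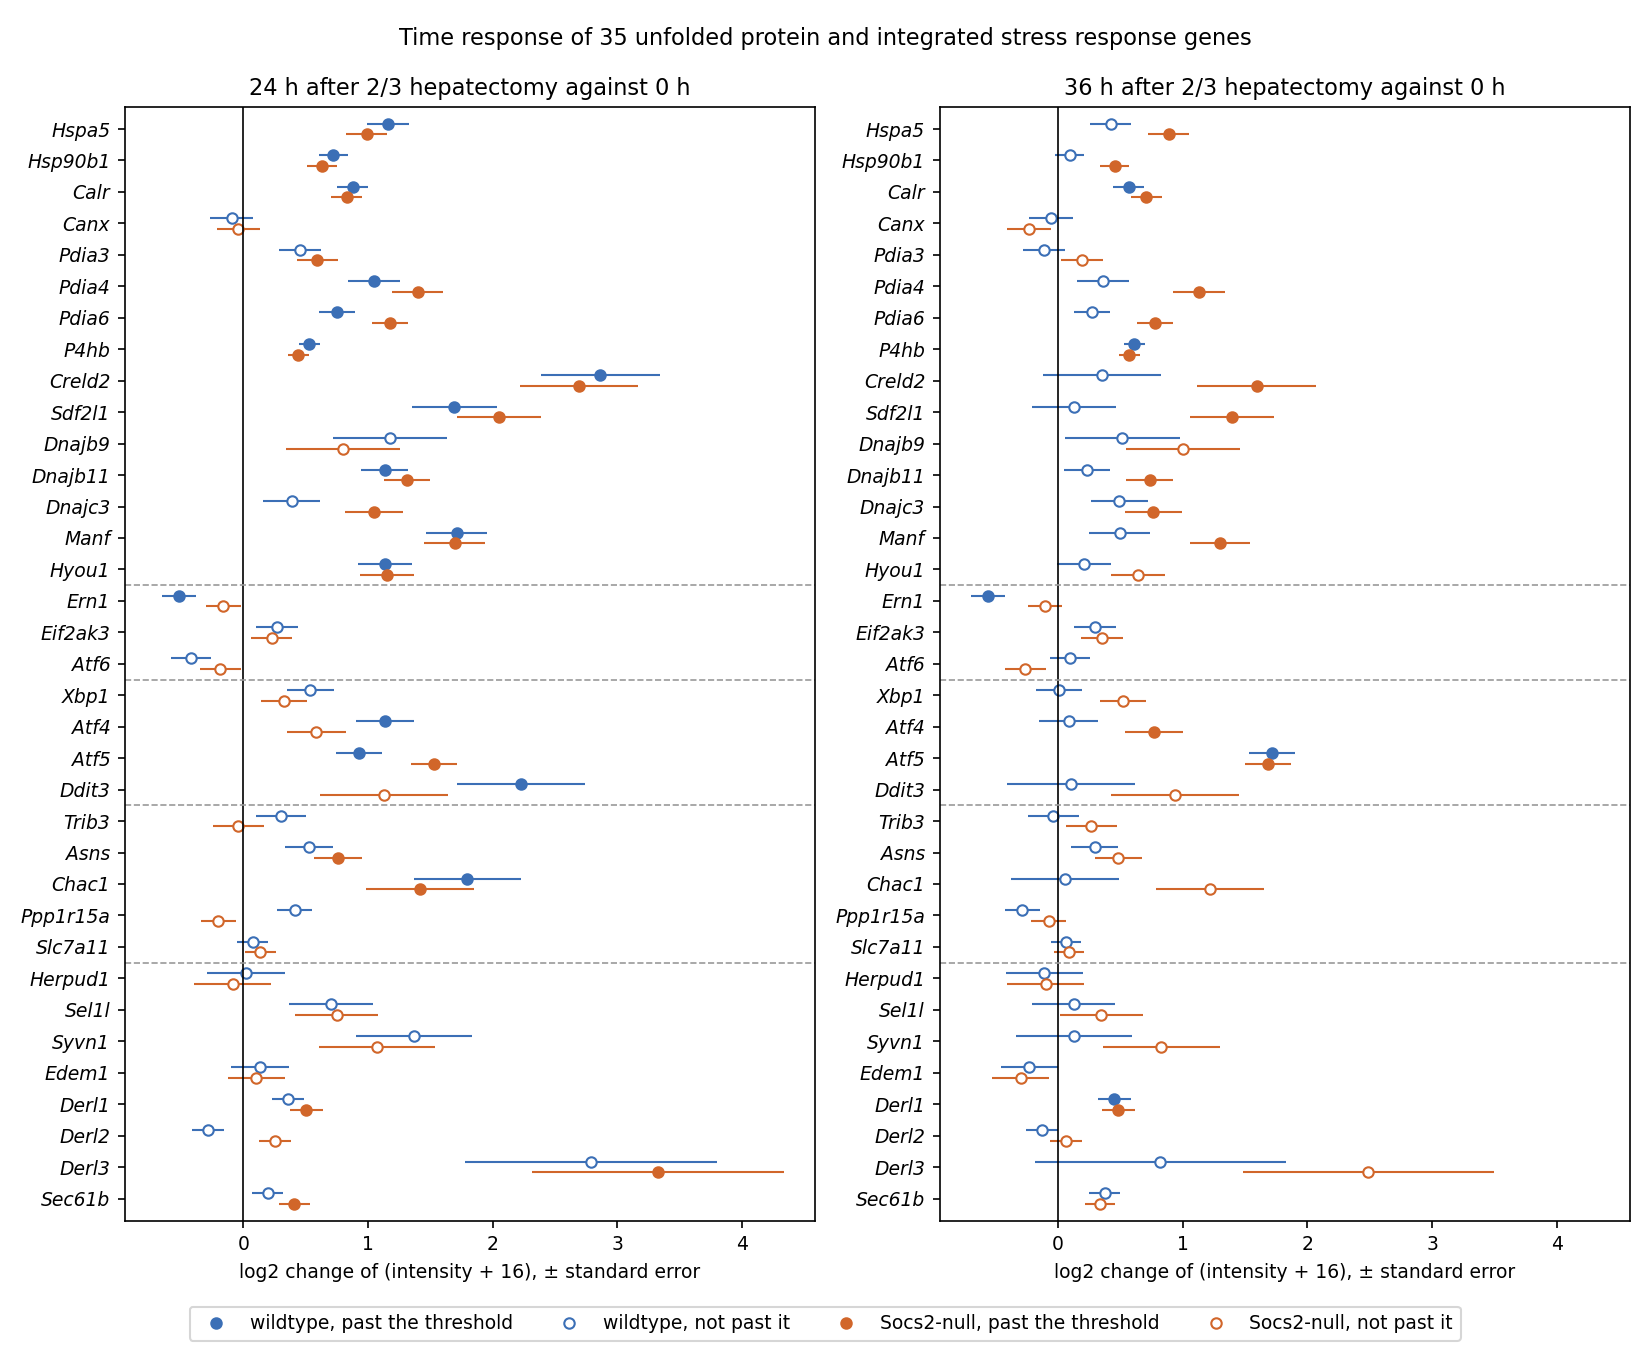
Log2 change of intensity + 16 against 0 h with its standard error for each of the 35 genes at 24 h and at 36 h, wildtype in blue and Socs2-null in orange, filled where the adjusted p was under 0.05 and with dashed lines between the 5 roles. All chaperones but Canx lie right of 0 in both genotypes at 24 h, while at 36 h 2 of the 15 wildtype and 11 of the 15 Socs2-null points are filled.

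Of the 15 chaperones and foldases, 11 rose in wildtype liver at 24 h and 13 in Socs2-null liver, and 2 and 11 did so at 36 h. Of the brighter genes 18.4 %, 18.7 %, 10.1 % and 16.8 % rose, in the same order, so the 2 of 15 in wildtype liver at 36 h is near its background. Their median log2 change was 1.05 in both genotypes at 24 h, 0.35 in wildtype liver at 36 h and 0.76 in Socs2-null liver at 36 h.

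Hspa5 encodes BiP, the Hsp70 chaperone of the ER that also holds the sensors inactive. Hspa5 gave 3653 and 3905 in the wildtype pools before surgery, 9596 and 7462 after 24 h and 4525 and 5671 after 36 h. For Hspa5 the Socs2-null pools gave 3521 and 3952, 6367 and 8654 and 7299.5 and 6532 at these times. The 24 h arrays lay above the 0 h arrays in both genotypes. Its log2 change at 24 h was 1.16 ± 0.17 (adjusted p = 0.00128) in wildtype and 0.99 ± 0.17 (adjusted p = 0.00202) in Socs2-null liver. At 36 h it was 0.42 ± 0.17 (adjusted p = 0.112) in wildtype and 0.89 ± 0.17 (adjusted p = 0.00399) in Socs2-null liver, and the Socs2-null arrays at 36 h lay above the wildtype ones.

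Hsp90b1 encodes GRP94, the Hsp90 chaperone of the ER. Hsp90b1 started from 4303 and 4412 in wildtype liver, stood at 7908 and 6545 at 24 h and ended at 4528 and 4768. Socs2-null Hsp90b1 values were 4467 and 4137 unoperated, 6027 and 7389 at 24 h and 5736 and 6053 at the last time. On the probe set used, the wildtype arrays came back close to their 0 h level at 36 h and the Socs2-null arrays did not. A second probe set is given further on. The change at 24 h was 0.72 ± 0.12 (adjusted p = 0.00218) in wildtype and 0.63 ± 0.12 (adjusted p = 0.00334) in Socs2-null liver. At 36 h it was 0.09 ± 0.12 (adjusted p = 0.635) and 0.45 ± 0.12 (adjusted p = 0.0199). The last call ended without any 1 of the 4 Socs2-null pools at 0 h and 36 h, with adjusted p between 0.0518 and 0.134, and with the hybridization controls as a covariate (adjusted p = 0.0511).

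Calr encodes calreticulin, a lectin chaperone of glycoproteins, and Canx its membrane-bound counterpart calnexin. Calr intensities in wildtype liver were 2349 and 2595 unoperated, 4761 and 4342 at 24 h, and 3593 and 3732 at 36 h. With Socs2 lost, Calr gave 2693 and 2441, then 4759 and 4380.2, then 3705 and 4755. Calr lay above its 0 h arrays at both times in both genotypes. Its changes were 0.88 ± 0.12 (adjusted p = 0.00126) and 0.57 ± 0.12 (adjusted p = 0.0130) in wildtype liver, and 0.83 ± 0.12 (adjusted p = 0.00117) and 0.71 ± 0.12 (adjusted p = 0.00287) in Socs2-null liver. The wildtype call at 36 h ended without wildtype 0 h replicate 1 (adjusted p = 0.113) or 2 (0.0619) or without wildtype 36 h replicate 2 (0.0726). Canx, in contrast, lay between 2179 and 3301 over all 12 arrays, with log2 changes from -0.23 to -0.04 and no call.

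The protein disulfide isomerases form and rearrange disulfide bonds in the ER. Of the 4 listed, P4hb was called in all 4 comparisons with 0 h and Pdia4 and Pdia6 in 3. Pdia4 gave 1386 and 1302 in the wildtype pools before surgery, 3513 and 2225 after 24 h and 1711 and 1745 after 36 h. For Pdia4 the Socs2-null pools gave 1321 and 1119, 2749.5 and 3804 and 2459 and 2919 at these times. Both genotypes were higher at 24 h, and at 36 h both Socs2-null pools lay above both wildtype pools. The change of Pdia4 was 1.05 ± 0.21 (adjusted p = 0.00522) and 0.36 ± 0.21 (adjusted p = 0.267) in wildtype liver and 1.40 ± 0.21 (adjusted p = 0.00106) and 1.13 ± 0.21 (adjusted p = 0.00349) in Socs2-null liver.

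Pdia6 started from 1630.1 and 1718 in wildtype liver, stood at 2958 and 2701 at 24 h and ended at 2073 and 1968. Socs2-null Pdia6 values were 1608 and 1348 unoperated, 3273 and 3434 at 24 h and 2170.3 and 2947 at the last time. All 4 pools of Pdia6 at 24 h lay above every 0 h pool, and so did those at 36 h. Its changes were 0.75 ± 0.14 (adjusted p = 0.00455) and 0.27 ± 0.14 (adjusted p = 0.234) in wildtype liver, and 1.18 ± 0.14 (adjusted p = 0.000385) and 0.77 ± 0.14 (adjusted p = 0.00375) in Socs2-null liver. P4hb intensities in wildtype liver were 4427 and 4752 unoperated, 6948 and 6333 at 24 h, and 6776 and 7246 at 36 h. With Socs2 lost, P4hb gave 4844 and 4864, then 6704 and 6482, then 7117 and 7325. P4hb, the classical isomerase, stayed high at 36 h in both genotypes, with changes of 0.53 ± 0.08 (adjusted p = 0.00201) and 0.61 ± 0.08 (adjusted p = 0.00123) in wildtype liver and 0.44 ± 0.08 (adjusted p = 0.00403) and 0.57 ± 0.08 (adjusted p = 0.00120) in Socs2-null liver. With the hybridization controls as a covariate the 36 h calls of P4hb ended in both genotypes (adjusted p = 0.135 and 0.106), and so did that of Pdia6 (0.266) and those of Calr (0.676 and 0.400).

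Pdia3, the isomerase that works with calnexin and calreticulin, had 1 dim probe set. Pdia3 gave 57.4 and 58.2 in the wildtype pools before surgery, 101 and 71.5 after 24 h and 57.0 and 48.0 after 36 h. For Pdia3 the Socs2-null pools gave 54.3 and 49.8, 71.0 and 105 and 61.2 and 62.4 at these times. The values at 24 h were above those at 0 h in both genotypes. Its rise was called in Socs2-null liver at 24 h (0.59 ± 0.17, adjusted p = 0.0246) and not in wildtype liver (0.45 ± 0.17, adjusted p = 0.0662). The call ended without Socs2-null 0 h replicate 1 (adjusted p = 0.0774), Socs2-null 0 h replicate 2 (0.123) or Socs2-null 24 h replicate 2 (0.169). With the covariate Pdia3 was also called in wildtype liver at 24 h (adjusted p = 0.00517) and in Socs2-null liver at 36 h (0.0424).

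Creld2, a small ER protein known as a target of ER stress signalling, had the largest fitted rise among the chaperones in both genotypes at 24 h. Creld2 started from 568 and 786 in wildtype liver, stood at 6981 and 3535 at 24 h and ended at 727 and 1014. Socs2-null Creld2 values were 584 and 509 unoperated, 2138 and 6099 at 24 h and 1503 and 1869 at the last time. The pools at 24 h were far apart within each genotype, and both lay above every 0 h pool. Its change at 24 h was 2.86 ± 0.47 (adjusted p = 0.00421) in wildtype liver, 7.28-fold, and 2.69 ± 0.47 (adjusted p = 0.00463) in Socs2-null liver, 6.46-fold. At 36 h it was 0.35 ± 0.47 (adjusted p = 0.658) and 1.59 ± 0.47 (adjusted p = 0.0463). The last call ended without any 1 of 8 arrays, namely the pools of both genotypes at 0 h and at 36 h, with adjusted p between 0.0620 and 0.182, and with the covariate (0.0603), under which its estimate was larger, 3.42.

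Sdf2l1 and Dnajb11 encode partners of BiP that bind unfolded proteins. Sdf2l1 intensities in wildtype liver were 572 and 665 unoperated, 2630.1 and 1566 at 24 h, and 727 and 625 at 36 h. With Socs2 lost, Sdf2l1 gave 575 and 379, then 1459 and 2707, then 1022 and 1533. At 36 h the wildtype pools lay near their 0 h values and the Socs2-null pools above all 0 h values. Sdf2l1 changed by 1.69 ± 0.34 (adjusted p = 0.00692) and 0.13 ± 0.34 (adjusted p = 0.835) in wildtype liver, and by 2.05 ± 0.34 (adjusted p = 0.00249) and 1.39 ± 0.34 (adjusted p = 0.0175) in Socs2-null liver. Its wildtype call ended without wildtype 0 h replicate 1 (adjusted p = 0.0518) or wildtype 24 h replicate 1 (0.0508). Its call in Socs2-null liver at 36 h ended without Socs2-null 0 h replicate 2 (0.121) or Socs2-null 36 h replicate 2 (0.0994), or with the covariate (0.0807).

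Dnajb11 gave 743 and 783 in the wildtype pools before surgery, 1982 and 1444 after 24 h and 965 and 836 after 36 h. For Dnajb11 the Socs2-null pools gave 733 and 640.4, 1479 and 2019 and 1050.4 and 1258 at these times. All pools of Dnajb11 after hepatectomy lay above every 0 h pool, with changes of 1.13 ± 0.19 (adjusted p = 0.00226) and 0.23 ± 0.19 (adjusted p = 0.433) in wildtype liver and 1.32 ± 0.19 (adjusted p = 0.000854) and 0.73 ± 0.19 (adjusted p = 0.0181) in Socs2-null liver. The last call ended without Socs2-null 0 h replicate 1 (adjusted p = 0.0546) or 2 (0.127) or Socs2-null 36 h replicate 2 (0.101). Dnajb9, a cochaperone that also restrains IRE1, passed in no comparison in the main fit. Its pools at 24 h read 3357 and 1187 in wildtype and 1136 and 1968 in Socs2-null liver. With the hybridization controls as a covariate it was called in all 4 comparisons with 0 h. The log2 changes were then 1.79 at 24 h and 3.03 at 36 h in wildtype liver (adjusted p = 0.00123 and 0.0204). In Socs2-null liver they were 1.97 and 3.42 (0.00315 and 0.00564). Without the covariate the changes at 36 h were 0.52 in wildtype and 1.00 in Socs2-null liver. Mean intensities went from 876 at 0 h to 1258 at 36 h in wildtype and from 856 to 1784 in Socs2-null liver. With only the arrays compared in the model, Dnajb9 was called at 36 h in both genotypes (0.0302 and 0.0454).

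Manf, a small ER protein that is also secreted, and Hyou1, the exchange factor of BiP, rose in both genotypes at 24 h. Manf started from 1576 and 1909 in wildtype liver, stood at 6902 and 4749 at 24 h and ended at 2172 and 2757. Socs2-null Manf values were 1577 and 1623 unoperated, 3965 and 6869 at 24 h and 4004 and 3915 at the last time. The Socs2-null pools at 36 h lay above both wildtype pools. Manf changed by 1.71 ± 0.24 (adjusted p = 0.00153) and 0.49 ± 0.24 (adjusted p = 0.205) in wildtype liver, and by 1.70 ± 0.24 (adjusted p = 0.00118) and 1.30 ± 0.24 (adjusted p = 0.00471) in Socs2-null liver.

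Hyou1 intensities in wildtype liver were 498 and 543 unoperated, 1434 and 943 at 24 h, and 607 and 599 at 36 h. With Socs2 lost, Hyou1 gave 589 and 459, then 1064 and 1300.0, then 696 and 966. Hyou1 changed by 1.14 ± 0.21 (adjusted p = 0.00424) and 1.15 ± 0.21 (adjusted p = 0.00334) at 24 h, and was at 0.21 ± 0.21 (adjusted p = 0.554) and 0.64 ± 0.21 (adjusted p = 0.0565) at 36 h. Its wildtype call ended where probe sets that can cross-hybridize were left out, since another probe set then stood for the gene (log2 change 0.43, adjusted p = 0.158). Dnajc3, which encodes a cochaperone of BiP known as an inhibitor of PERK, is read from 1 of 5 probe sets. Dnajc3 gave 3028 and 3142 in the wildtype pools before surgery, 5598 and 2916 after 24 h and 4361 and 4318 after 36 h. For Dnajc3 the Socs2-null pools gave 3029.7 and 2735, 5709 and 6241 and 4502 and 5316 at these times. The wildtype pools at 24 h stood on both sides of the 0 h pools. Dnajc3 was at 0.39 ± 0.23 (adjusted p = 0.235) in wildtype liver at 24 h, and changed by 1.05 ± 0.23 (adjusted p = 0.00891) and 0.76 ± 0.23 (adjusted p = 0.0408) in Socs2-null liver. The 24 h call ended without replicate 2 of Socs2-null 0 h (adjusted p = 0.0616) or of Socs2-null 24 h (0.0538). The 36 h call ended without any 1 of 10 arrays, all but the wildtype pools at 24 h, with adjusted p between 0.0528 and 0.182, with the mean of its probe sets (0.333) and with the covariate (0.124).

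**Figure D3:**
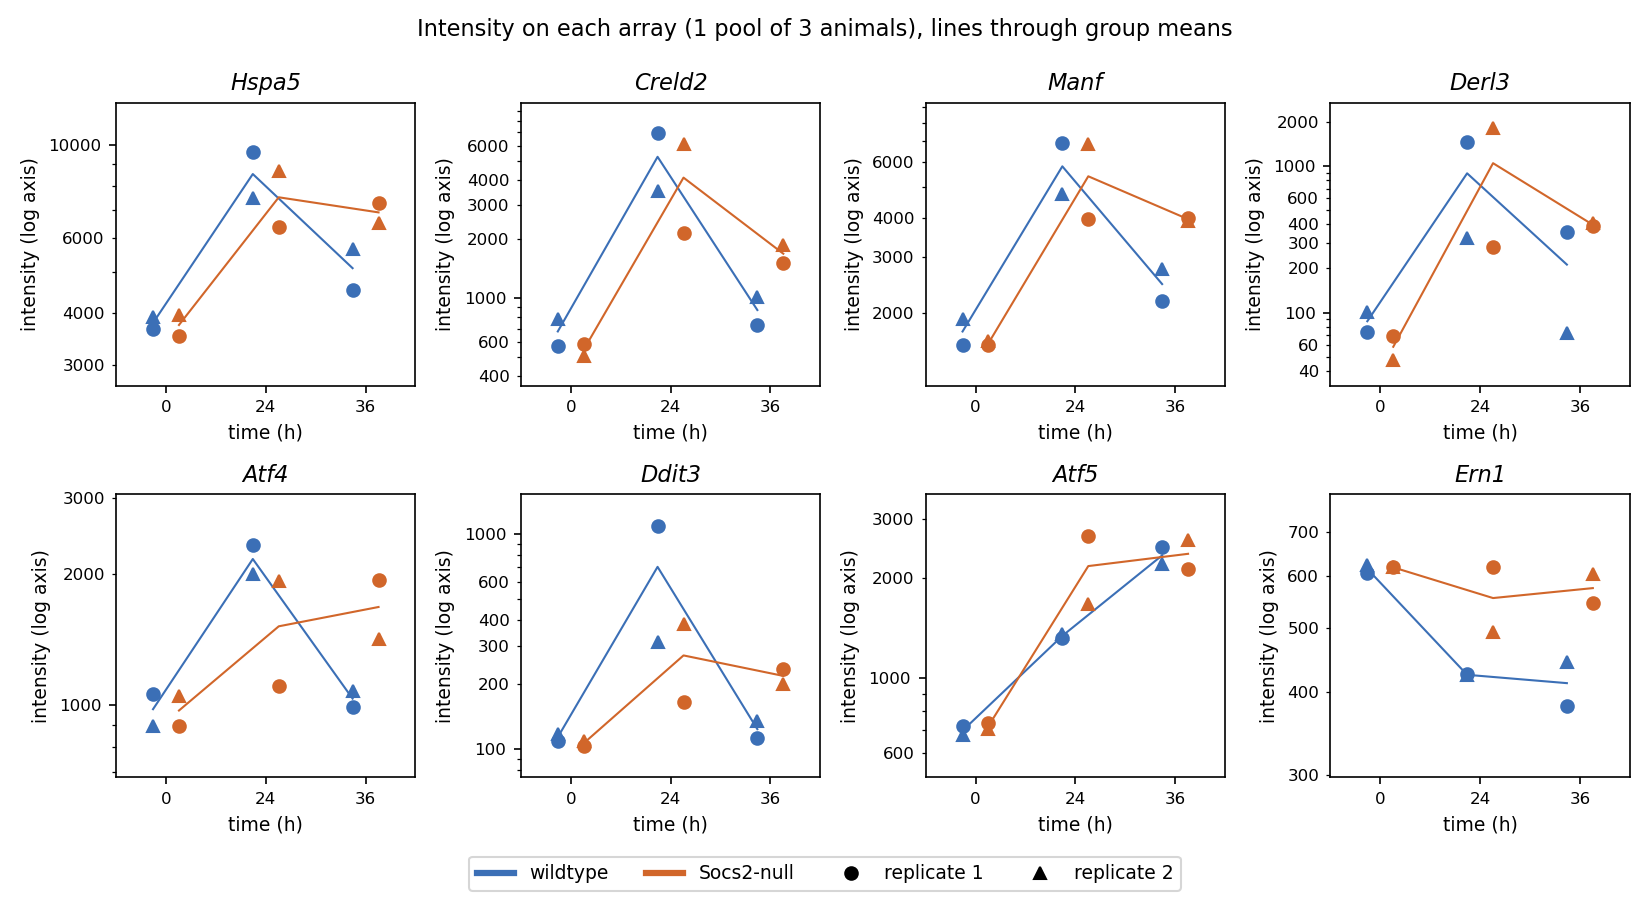
Intensity on each array (log axis) against hours after hepatectomy for 8 of the genes, circles for replicate 1 and triangles for replicate 2, with lines through the group means, wildtype in blue and Socs2-null in orange. Hspa5, Creld2, Manf, Derl3, Atf4 and Ddit3 have their highest wildtype mean at 24 h, Atf5 its highest wildtype mean at 36 h, and the 4 wildtype pools of Ern1 after hepatectomy lie under all its other pools.

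Of the 3 sensors, Ern1 fell in wildtype liver at both times and Eif2ak3 and Atf6 passed in no comparison in the main fit. Ern1 started from 607 and 624 in wildtype liver, stood at 426 and 424 at 24 h and ended at 381 and 445. Socs2-null Ern1 values were 619 and 619 unoperated, 619 and 493 at 24 h and 546 and 605 at the last time. All 4 wildtype pools after hepatectomy lay under every other pool. Ern1 changed by -0.52 ± 0.14 (adjusted p = 0.0194) and -0.56 ± 0.14 (adjusted p = 0.0199) in wildtype liver, and was at -0.16 ± 0.14 (adjusted p = 0.432) and -0.10 ± 0.14 (adjusted p = 0.644) in Socs2-null liver. The call at 24 h ended without any 1 of the 4 wildtype pools at 0 h and 24 h (adjusted p between 0.0761 and 0.116). The call at 36 h ended without wildtype 0 h replicate 1 (0.105) or 2 (0.138) or wildtype 36 h replicate 1 (0.0916), or with the covariate (0.0620). Both ended after centring on array medians (0.0919 and 0.0644) and with the mean of its 5 probe sets (0.283 and 0.106).

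Eif2ak3 intensities in wildtype liver were 164 and 152 unoperated, 216 and 173 at 24 h, and 176 and 222 at 36 h. With Socs2 lost, Eif2ak3 gave 145 and 194, then 207 and 192, then 234 and 204. Eif2ak3 was at 0.27 ± 0.17 (adjusted p = 0.256) and 0.30 ± 0.17 (adjusted p = 0.261) in wildtype liver and at 0.23 ± 0.17 (adjusted p = 0.355) and 0.35 ± 0.17 (adjusted p = 0.171) in Socs2-null liver. Atf6 gave 228 and 208 in the wildtype pools before surgery, 152 and 167 after 24 h and 259 and 212 after 36 h. For Atf6 the Socs2-null pools gave 249 and 267, 255 and 199 and 187 and 241 at these times. The wildtype pools of Atf6 at 24 h lay under all other pools, at -0.42 ± 0.16 (adjusted p = 0.0787) against 0 h. With the covariate that fall was called (adjusted p = 0.0312). It was also called with array weights (0.0232) and with only the arrays compared in the model (0.0231). The other changes of Atf6 were between -0.26 and 0.10. All 3 sensors are switched on by changes to the protein, which mRNA levels do not measure.

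Of the 4 transcription factors, Atf4, Atf5 and Ddit3 rose in wildtype liver at 24 h, and Atf5 alone was called in all 4 comparisons with 0 h. Atf4 started from 1059 and 896 in wildtype liver, stood at 2334 and 2003 at 24 h and ended at 989 and 1078. Socs2-null Atf4 values were 893 and 1048 unoperated, 1104 and 1931 at 24 h and 1944 and 1418 at the last time. In wildtype liver Atf4 was high at 24 h only, while 1 Socs2-null pool at 24 h and both at 36 h were high. Atf4 changed by 1.14 ± 0.23 (adjusted p = 0.00678) in wildtype liver at 24 h and was at 0.08 ± 0.23 (adjusted p = 0.843) at 36 h. In Socs2-null liver it was at 0.59 ± 0.23 (adjusted p = 0.0923) at 24 h and changed by 0.77 ± 0.23 (adjusted p = 0.0409) at 36 h. The wildtype call ended without wildtype 0 h replicate 2 (adjusted p = 0.0635) or wildtype 24 h replicate 1 (0.0524). The Socs2-null call at 36 h ended without any 1 of 9 arrays, namely the pools of both genotypes at 0 h, the wildtype pools at 24 h and 36 h and Socs2-null 36 h replicate 1, with adjusted p between 0.0537 and 0.235. The Socs2-null call at 36 h also ended with the mean of its probe sets (log2 change 0.31, adjusted p = 0.246). It ended as well after quantile normalization (0.0790) and with a replicate block (0.0584). With the covariate Atf4 was also called in Socs2-null liver at 24 h (0.00303).

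Atf5, a relative of Atf4 known from the mitochondrial unfolded protein response, rose at both times in both genotypes. Atf5 intensities in wildtype liver were 719 and 678 unoperated, 1325 and 1357 at 24 h, and 2467 and 2200.4 at 36 h. With Socs2 lost, Atf5 gave 738 and 705, then 2661 and 1675, then 2122 and 2597. The groups at 0 h did not overlap with any later group. Atf5 changed by 0.93 ± 0.18 (adjusted p = 0.00559) and 1.72 ± 0.18 (adjusted p = 0.000308) in wildtype liver, and by 1.53 ± 0.18 (adjusted p = 0.000365) and 1.68 ± 0.18 (adjusted p = 0.000208) in Socs2-null liver. The first call ended without wildtype 0 h replicate 2 (adjusted p = 0.0514), and both 36 h calls ended with the hybridization controls as a covariate (0.188 and 0.134).

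Ddit3 encodes CHOP, which promotes cell death under lasting stress. Ddit3 gave 109 and 117 in the wildtype pools before surgery, 1093 and 314 after 24 h and 112 and 135 after 36 h. For Ddit3 the Socs2-null pools gave 104 and 109, 164 and 380.0 and 236 and 201 at these times. At 24 h 1 wildtype pool stood well above the other, and at 36 h the wildtype pools were close to the 0 h values. Ddit3 changed by 2.23 ± 0.51 (adjusted p = 0.0154) in wildtype liver at 24 h, 4.69-fold. In Socs2-null liver it was at 1.13 ± 0.51 (adjusted p = 0.144) at 24 h and 0.94 ± 0.51 (adjusted p = 0.245) at 36 h. The call ended without wildtype 0 h replicate 1 (adjusted p = 0.0767) or 2 (0.0721), and with only the 4 arrays compared in the model (0.0613). With the covariate Ddit3 was also called in Socs2-null liver at 24 h (0.00835) and 36 h (0.0231).

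Xbp1 started from 3522 and 3775 in wildtype liver, stood at 6057 and 4638 at 24 h and ended at 3202 and 4185. Socs2-null Xbp1 values were 3487 and 4219 unoperated, 4139.5 and 5590.5 at 24 h and 6057 and 5008 at the last time. Xbp1 was at 0.54 ± 0.19 (adjusted p = 0.0554) and 0.01 ± 0.19 (adjusted p = 0.987) in wildtype liver and at 0.33 ± 0.19 (adjusted p = 0.230) and 0.52 ± 0.19 (adjusted p = 0.0740) in Socs2-null liver, with no call. With the covariate it was called in wildtype liver at 24 h (adjusted p = 0.00853) and in Socs2-null liver at 24 h (0.0354) and 36 h (0.0358). Spliced and unspliced Xbp1 mRNA were not told apart.

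Among the 5 targets of ATF4 and CHOP, Chac1 rose in both genotypes at 24 h and Asns rose in Socs2-null liver at 24 h. Trib3, Ppp1r15a and Slc7a11 passed nowhere in the main fit. Chac1 encodes an enzyme that degrades glutathione. Chac1 intensities in wildtype liver were 147 and 114 unoperated, 376 and 634 at 24 h, and 114 and 159.7 at 36 h. With Socs2 lost, Chac1 gave 201 and 86.5, then 253 and 576, then 343 and 320.5. Both pools at 24 h lay above the 0 h pools in each genotype. Chac1 changed by 1.80 ± 0.43 (adjusted p = 0.0166) in wildtype and 1.42 ± 0.43 (adjusted p = 0.0411) in Socs2-null liver. The wildtype call ended without wildtype 0 h replicate 1 (adjusted p = 0.0592) or 2 (0.0966) or wildtype 24 h replicate 2 (0.0927). The Socs2-null call ended without any 1 of 8 arrays, namely the wildtype pools at 0 h and 36 h, the Socs2-null pools at 36 h and replicate 2 of Socs2-null 0 h and 24 h, with adjusted p between 0.0548 and 0.220, with a replicate block (0.0566) and with the covariate (0.177).

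Asns encodes asparagine synthetase. Asns gave 283 and 252 in the wildtype pools before surgery, 435 and 354 after 24 h and 349 and 315 after 36 h. For Asns the Socs2-null pools gave 361 and 237, 503 and 512 and 370.1 and 468 at these times. All pools at 24 h in Socs2-null liver lay above all others. Asns changed by 0.76 ± 0.19 (adjusted p = 0.0148) in Socs2-null liver at 24 h and was at 0.53 ± 0.19 (adjusted p = 0.0614) in wildtype liver. The call ended without Socs2-null 0 h replicate 2 (adjusted p = 0.141) or Socs2-null 24 h replicate 2 (0.0533), or with the covariate (0.0844).

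Ppp1r15a encodes the GADD34 subunit that directs a phosphatase to eIF2α. It read 175 and 178 in wildtype liver at 24 h and 110.0 and 126 in Socs2-null liver, without overlap. Its wildtype change was 0.41 ± 0.14 (adjusted p = 0.0520), called with the covariate (0.0191). It was also called under other alternatives, among them centring on array medians (0.0187) and array weights (0.0185). Trib3, a pseudokinase gene, lay between 82.0 and 174 over the 12 arrays. Slc7a11, the cystine transporter gene, was under the brightest tag control on 10 of 12 arrays, so changes in it could not be read.

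None of the 8 degradation and translocation genes rose in wildtype liver at 24 h, where 3 had an unadjusted p under 0.05 in limma, against 39.7 % of all genes. Derl1 rose there at 36 h, Derl1, Derl3 and Sec61b rose in Socs2-null liver at 24 h, and Derl1 rose there at 36 h. Of the brighter genes 10.1 % rose at 36 h in wildtype liver, and 18.7 % and 16.8 % rose at 24 h and 36 h in Socs2-null liver. A single gene of the 8 at 36 h is near these shares in each genotype. Derlins help to pull misfolded proteins out of the ER. Derl1 started from 844 and 922 in wildtype liver, stood at 1150.4 and 1121 at 24 h and ended at 1327 and 1107. Socs2-null Derl1 values were 928 and 909 unoperated, 1447 and 1188 at 24 h and 1298 and 1283 at the last time. All pools after hepatectomy lay above all 0 h pools. Derl1 changed by 0.45 ± 0.13 (adjusted p = 0.0408) in wildtype liver at 36 h, and by 0.51 ± 0.13 (adjusted p = 0.0179) and 0.48 ± 0.13 (adjusted p = 0.0250) in Socs2-null liver.

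The wildtype call of Derl1 ended without any 1 of 7 arrays, namely the pools of both genotypes at 0 h, the wildtype pools at 24 h and wildtype 36 h replicate 1, with adjusted p between 0.0555 and 0.230, and after quantile normalization (0.0625). Its Socs2-null call at 24 h ended without Socs2-null 0 h replicate 1 (0.0800) or 2 (0.0976), and likewise without Socs2-null 24 h replicate 1 (0.0990). Its Socs2-null call at 36 h ended without any 1 of the 4 Socs2-null pools at 0 h and 36 h (0.0715 to 0.129). With the hybridization controls as a covariate all 3 calls of Derl1 ended (adjusted p = 0.687 in wildtype liver at 36 h, 0.137 and 0.586 in Socs2-null liver at 24 h and 36 h), with log2 changes of 0.27, 0.42 and 0.31.

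Derl3 had the largest fitted change of the 35 genes in Socs2-null liver at 24 h and the widest gap between pools at that time in both genotypes. Derl3 intensities in wildtype liver were 73.9 and 100.4 unoperated, 1459 and 323 at 24 h, and 352 and 72.5 at 36 h. With Socs2 lost, Derl3 gave 69.3 and 47.4, then 281 and 1808, then 387 and 406. At 24 h each genotype had 1 high and 1 low pool, and all 4 lay above the 0 h pools. Derl3 changed by 3.32 ± 1.01 (adjusted p = 0.0471) in Socs2-null liver at 24 h and was at 2.79 ± 1.01 (adjusted p = 0.0783) in wildtype liver. The call ended without any 1 of 7 arrays, namely the pools of both genotypes at 0 h, Socs2-null 24 h replicate 2 and both Socs2-null pools at 36 h, with adjusted p between 0.0617 and 0.247, and with a replicate block (0.0626). With the covariate Derl3 was also called in wildtype liver at 24 h (0.0102) and in Socs2-null liver at 36 h (0.0353).

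Derl3 also stands in the list of plasma cell markers, cells rich in ER. Of 6 other plasma cell markers measured, Tnfrsf17, Ighm and Pou2af1 were under background in every group, and the 6 summed to 174 to 230.2 at 0 h and to 107 to 139 after hepatectomy. The sum of 8 pancreatic acinar markers, from cells also rich in ER, was 1419 to 1542 at 0 h and 642 to 887 after hepatectomy. The part of these cells in the Derl3 values was not tested.

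Sec61b encodes a subunit of the translocon through which new proteins enter the ER. Sec61b gave 2539.9 and 2545 in the wildtype pools before surgery, 3241 and 2619.9 after 24 h and 3405 and 3195 after 36 h. For Sec61b the Socs2-null pools gave 2614 and 2618, 3764 and 3218 and 3110.3 and 3507 at these times. All later pools lay above the 0 h pools of their genotype. Sec61b changed by 0.41 ± 0.12 (adjusted p = 0.0319) in Socs2-null liver at 24 h and was at 0.37 ± 0.12 (adjusted p = 0.0627) in wildtype liver at 36 h. The call ended without any 1 of 5 arrays, namely the pools of both genotypes at 0 h and Socs2-null 24 h replicate 1, with adjusted p between 0.0558 and 0.155, and with the covariate (0.164).

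The ubiquitin ligase genes Syvn1 and Sel1l, which act together, the membrane gene Herpud1, the lectin gene Edem1 and Derl2 passed nowhere in the main fit. Syvn1 read 2135 and 735 in wildtype liver at 24 h and 677 and 1418 in Socs2-null liver, above the 0 h pools, which lay between 411 and 548. Its change was 1.37 ± 0.47 (adjusted p = 0.0588) and 1.07 ± 0.47 (adjusted p = 0.127). With the covariate Syvn1 was called in both (0.00217 and 0.00530) and in Socs2-null liver at 36 h (0.0177). In wildtype liver at 24 h Syvn1 was also called after centring on array medians (0.0390) and with array weights (0.0258). Derl2 was called there as lower with the mean of its probe sets (0.0188) and with array weights (0.0357). Sel1l was called in Socs2-null liver at 24 h with only the arrays compared in the model (0.0474). Sel1l read 1784 and 774 at 24 h in wildtype liver against 669 and 767 at 0 h. Herpud1, which holds both an ER stress element II and a composite element, lay between 2263 and 4232 with log2 changes from -0.11 to 0.02.

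Between 24 h and 36 h the 35 genes were lower at the later time in wildtype liver by their median, -0.53 on the log2 scale against 0.0057 for all genes, but none was called where 0.240 % of all genes were called. At an unadjusted p under 0.05 in limma 17 were lower and 2 higher, 19 of 35, against 14.9 % of all genes. Both pools at 36 h lay under both pools at 24 h for 19 of the 35, against 22.8 % of all genes, and above them for 3, against 23.3 %. Hsp90b1 came nearest, at -0.63 ± 0.12 (adjusted p = 0.0594), while its second probe set was at -0.15 ± 0.30. Creld2 was at -2.51 ± 0.47 (adjusted p = 0.0889), Manf at -1.22 ± 0.24 (adjusted p = 0.0839), Ddit3 at -2.12 ± 0.51 (adjusted p = 0.145) and Atf4 at -1.05 ± 0.23 (adjusted p = 0.104). Atf5 went the other way, at 0.79 ± 0.18 (adjusted p = 0.110).

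Without Socs2-null 24 h replicate 1 or replicate 2, pools that are not in this comparison but add to the fitted spread, 9 were called, 1 higher and 8 lower. These were Atf5, higher, and Hspa5, Hsp90b1, Creld2, Sdf2l1, Dnajb11, Manf, Atf4 and Ppp1r15a, lower, with adjusted p of 0.0156 for Creld2 and 0.0221 for Hsp90b1 without replicate 1. Without wildtype 24 h replicate 2, 1 was called, Ddit3, at an adjusted p of 0.0457. The hybridization controls differed by -0.62 in this comparison, and with them as a covariate 0 genes were called. In Socs2-null liver the median was -0.19 against 0.015 for all genes, with the sign turned under 1 of 25 alternatives, and 0 of the 35 were called, with 0.00585 % of all genes. There 5 were lower at an unadjusted p under 0.05 and 0 higher, against 7.18 % of all genes in either direction.

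The pools within a group differed more for these genes than for most, above all at 24 h. The median difference between the pools, without regard to sign, at 24 h was 0.36 on the log2 scale in wildtype liver and 0.41 in Socs2-null liver for the 35 genes, against 0.13 and 0.17 over all genes. At 0 h it was 0.099 and 0.17 against 0.081 and 0.11. The brighter genes, the nearer background, were not taken apart for these medians or for the counts of pool differences that follow. In wildtype liver at 24 h 30 of the 35 were higher in replicate 1, against 45.6 % of all genes. In Socs2-null liver at 24 h 24 of the 35 were higher in replicate 2 and 11 in replicate 1, where 40.9 % of all genes were higher in replicate 1.

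More than 2-fold apart at 24 h were 5 of the 35 in each genotype, against 0.333 % and 1.19 % of all genes. In wildtype liver these were Dnajb9, Ddit3, Sel1l, Syvn1 and Derl3, each higher in replicate 1. In Socs2-null liver they were Creld2, Ddit3, Chac1, Syvn1 and Derl3, each higher in replicate 2. Derl3 was 2.12 on the log2 scale higher in replicate 1 of wildtype liver, and its difference of replicate 1 minus replicate 2 in Socs2-null liver was -2.62. The 11 higher in Socs2-null replicate 1 were Calr, Canx, P4hb, Ern1, Eif2ak3, Atf6, Atf5, Herpud1, Derl1, Derl2 and Sec61b.

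Other values also differed between these pools. The mean log2 level of the hybridization controls was 9.90 on wildtype 24 h replicate 1 and 9.63 on replicate 2, and 9.34 on Socs2-null 24 h replicate 1 and 9.72 on replicate 2, so it was higher on the pools where most of the 35 genes were higher. The summed level of 7 neutrophil markers was 1930 on Socs2-null 24 h replicate 2 and 403 on replicate 1, and 573 and 417 on the wildtype 24 h pools, against 314 to 367 at 0 h. The sum of 9 Kupffer cell and macrophage markers was 4971 on Socs2-null 24 h replicate 2 and 7166 on replicate 1, and 5634 and 5456 on the wildtype 24 h pools. The hepatocyte sum was 101415 and 98593 on wildtype 24 h replicates 1 and 2, and 95895 and 98571 on the Socs2-null ones. In the same order the plasma cell sum was 128, 113, 127 and 139, and that of stellate cell markers 3663, 3500, 3733 and 3823. The acinar sum went the other way, 815, 824, 697 and 642. Cholangiocyte and endothelial sums followed most of the 35 genes only in wildtype and only in Socs2-null liver, respectively. The part of these cells and controls in the pool differences was not tested. Without wildtype 24 h replicate 1, 13 of the 35 genes rose in wildtype liver at 24 h, and 19 did so without replicate 2. Without Socs2-null 24 h replicate 2, 15 rose in Socs2-null liver at 24 h, and 18 did so without replicate 1.

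**Figure D4:**
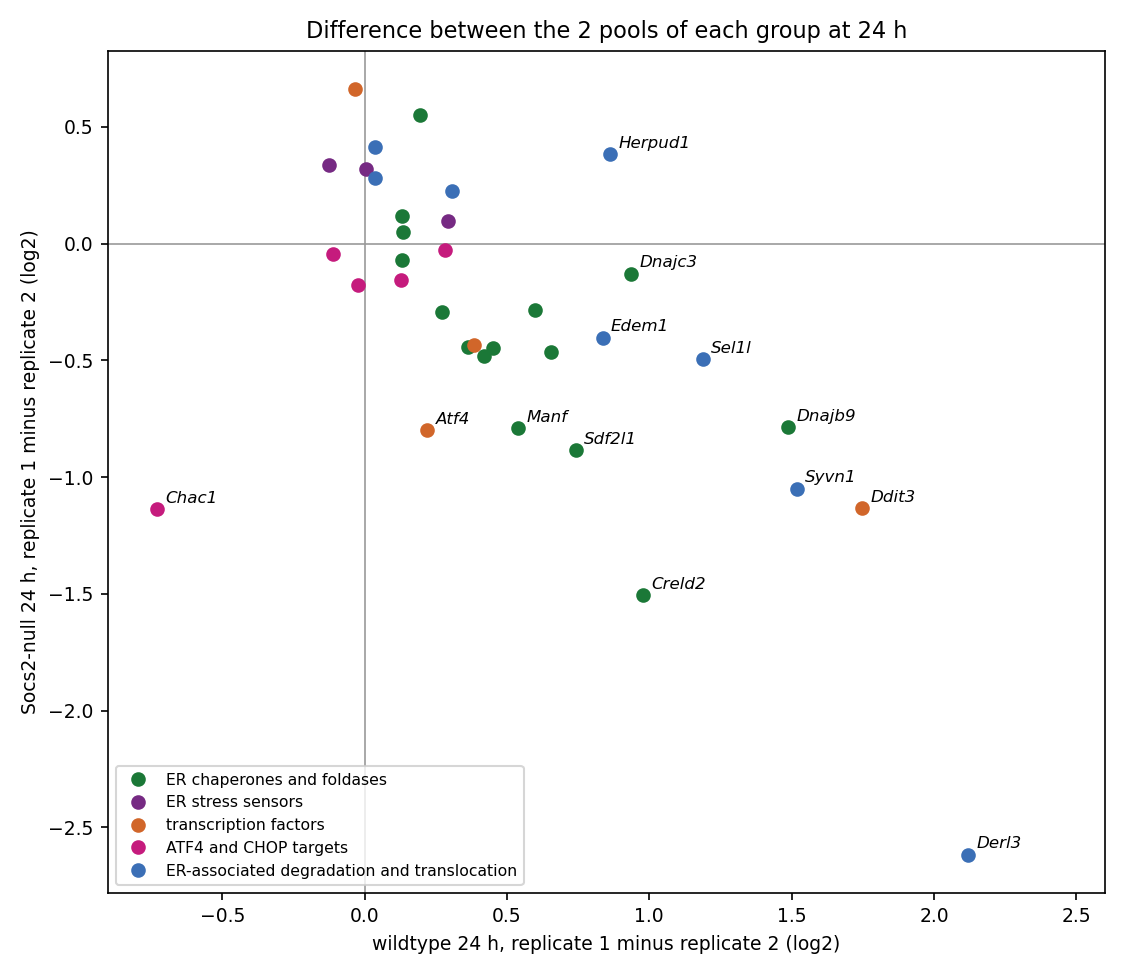
Log2 difference between replicate 1 and replicate 2 at 24 h for each of the 35 genes, wildtype on the horizontal and Socs2-null on the vertical axis, coloured by role. Most points lie at lower right, higher in wildtype replicate 1 and in Socs2-null replicate 2 (21 of 35, against 30.8 % of all genes), with Derl3 at 2.12 and -2.62.

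Between the genotypes none of the 35 genes passed at any time, and few of all genes did. In unoperated liver 0 of the 35 were called, where 0 % of all genes were called, and 0 of the 35 had an unadjusted p under 0.05 in limma, against 4.95 % of all genes. Their median log2 difference, Socs2-null minus wildtype, was -0.013, with a sign that turned under 5 of 25 alternatives.

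At 24 h 0 of the 35 were called, where 0.0117 % of all genes were called, and 8 had an unadjusted p under 0.05 in limma, 5 higher and 3 lower in Socs2-null liver, against 8.24 % of all genes. Ppp1r15a was at -0.52 ± 0.14 (adjusted p = 0.442), Atf5 at 0.65 ± 0.18 (adjusted p = 0.443), Derl2 at 0.44 ± 0.13 (adjusted p = 0.443) and Atf4 at -0.56 ± 0.23 (adjusted p = 0.581). The Socs2-null pools of Atf5 and Derl2 lay above the wildtype pools, and those of Ppp1r15a and Atf4 below. Without wildtype 24 h replicate 1, Dnajc3 alone was called (adjusted p = 0.0465), and without Socs2-null 24 h replicate 2, Atf5 (0.0394) and Derl2 (0.0497) were.

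At 36 h 31 of the 35 genes (88.6 %) had a higher mean log2 level in Socs2-null liver, against 47.6 % of all genes. None was called, where 0.0234 % of all genes were called. At an unadjusted p under 0.05 in limma 11 were higher and 0 lower, against 3.23 % and 3.21 % of all genes. Both Socs2-null pools lay above both wildtype pools for 23 of the 35 (65.7 %), against 15.2 % of all genes, and below them for 0, against 17.6 %. This count was 24 after quantile normalization, 23 after centring on array medians and 22 when a gene's probe sets were averaged, settings chosen after the data were seen. The median difference was 0.32, and between 0.22 and 0.41 over the alternatives, against -0.0081 for all genes. The 35 genes also moved together between pools of the same group, so these counts are not of independent genes. In wildtype liver at 24 h 30 of them were higher in replicate 1, with a median pool difference of 0.36 without regard to sign. At 36 h the median pool difference was 0.20 in wildtype and 0.26 in Socs2-null liver. The hybridization controls differed by -0.019 on the log2 scale in this comparison. The cause of the difference between the genotypes was not tested.

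The sensor Ern1 had the smallest adjusted p at 36 h, 0.47 ± 0.14 (adjusted p = 0.531), on the probe set used. Its 5 probe sets did not move alike over time, as given further on. Among the chaperones Sdf2l1 was at 0.88 ± 0.34 (adjusted p = 0.698), Pdia4 at 0.63 ± 0.21 (adjusted p = 0.603), Manf at 0.69 ± 0.24 (adjusted p = 0.656), Hsp90b1 at 0.34 ± 0.12 (adjusted p = 0.642) and Hspa5 at 0.45 ± 0.17 (adjusted p = 0.673). Among the transcription factors Xbp1 was at 0.59 ± 0.19 (adjusted p = 0.580), with 3202 and 4185 in wildtype and 6057 and 5008 in Socs2-null pools, and Atf4 at 0.68 ± 0.23 (adjusted p = 0.642). Chac1 was at 1.20 ± 0.43 (adjusted p = 0.673), with 343 and 320.5 in Socs2-null and 114 and 159.7 in wildtype pools. P4hb, Atf5 and Sec61b, whose pools at 36 h lay above their 0 h pools in both genotypes, were at 0.04, 0.01 and 0.00. An adjusted p over 0.05 does not show that the genotypes were alike.

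The difference between the responses was tested as Socs2-null minus wildtype change against 0 h. At 24 h 0 of the 35 were called, where 0 % of all genes were called, and 3 had an unadjusted p under 0.05 in limma, against 3.78 % of all genes. The median was 0.017 against 0.027 for all genes, and its sign turned under 7 of 25 alternatives. At 36 h 0 of the 35 were called, where 0.00585 % of all genes were called. There 29 of the 35 (82.9 %) had a larger fitted response in Socs2-null liver, against 60.3 % of all genes, with a median of 0.31 against 0.048. At an unadjusted p under 0.05 in limma 5 were higher, against 2.45 % of all genes, and 0 lower. These were Sdf2l1 (1.27 ± 0.48, adjusted p = 0.999), Pdia4 (0.77 ± 0.29, adjusted p = 0.999), Pdia6 (0.50 ± 0.20, adjusted p = 0.999), Ern1 (0.46 ± 0.19, adjusted p = 0.999) and Manf (0.81 ± 0.35, adjusted p = 0.999). The larger count of rises in Socs2-null liver at 36 h was not shown to be a difference between genotypes for any single gene. Over the mean of the 3 times 0 were called, where 0.0292 % of all genes were called, and 3 had an unadjusted p under 0.05, against 10.2 % of all genes.

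**Figure D5:**
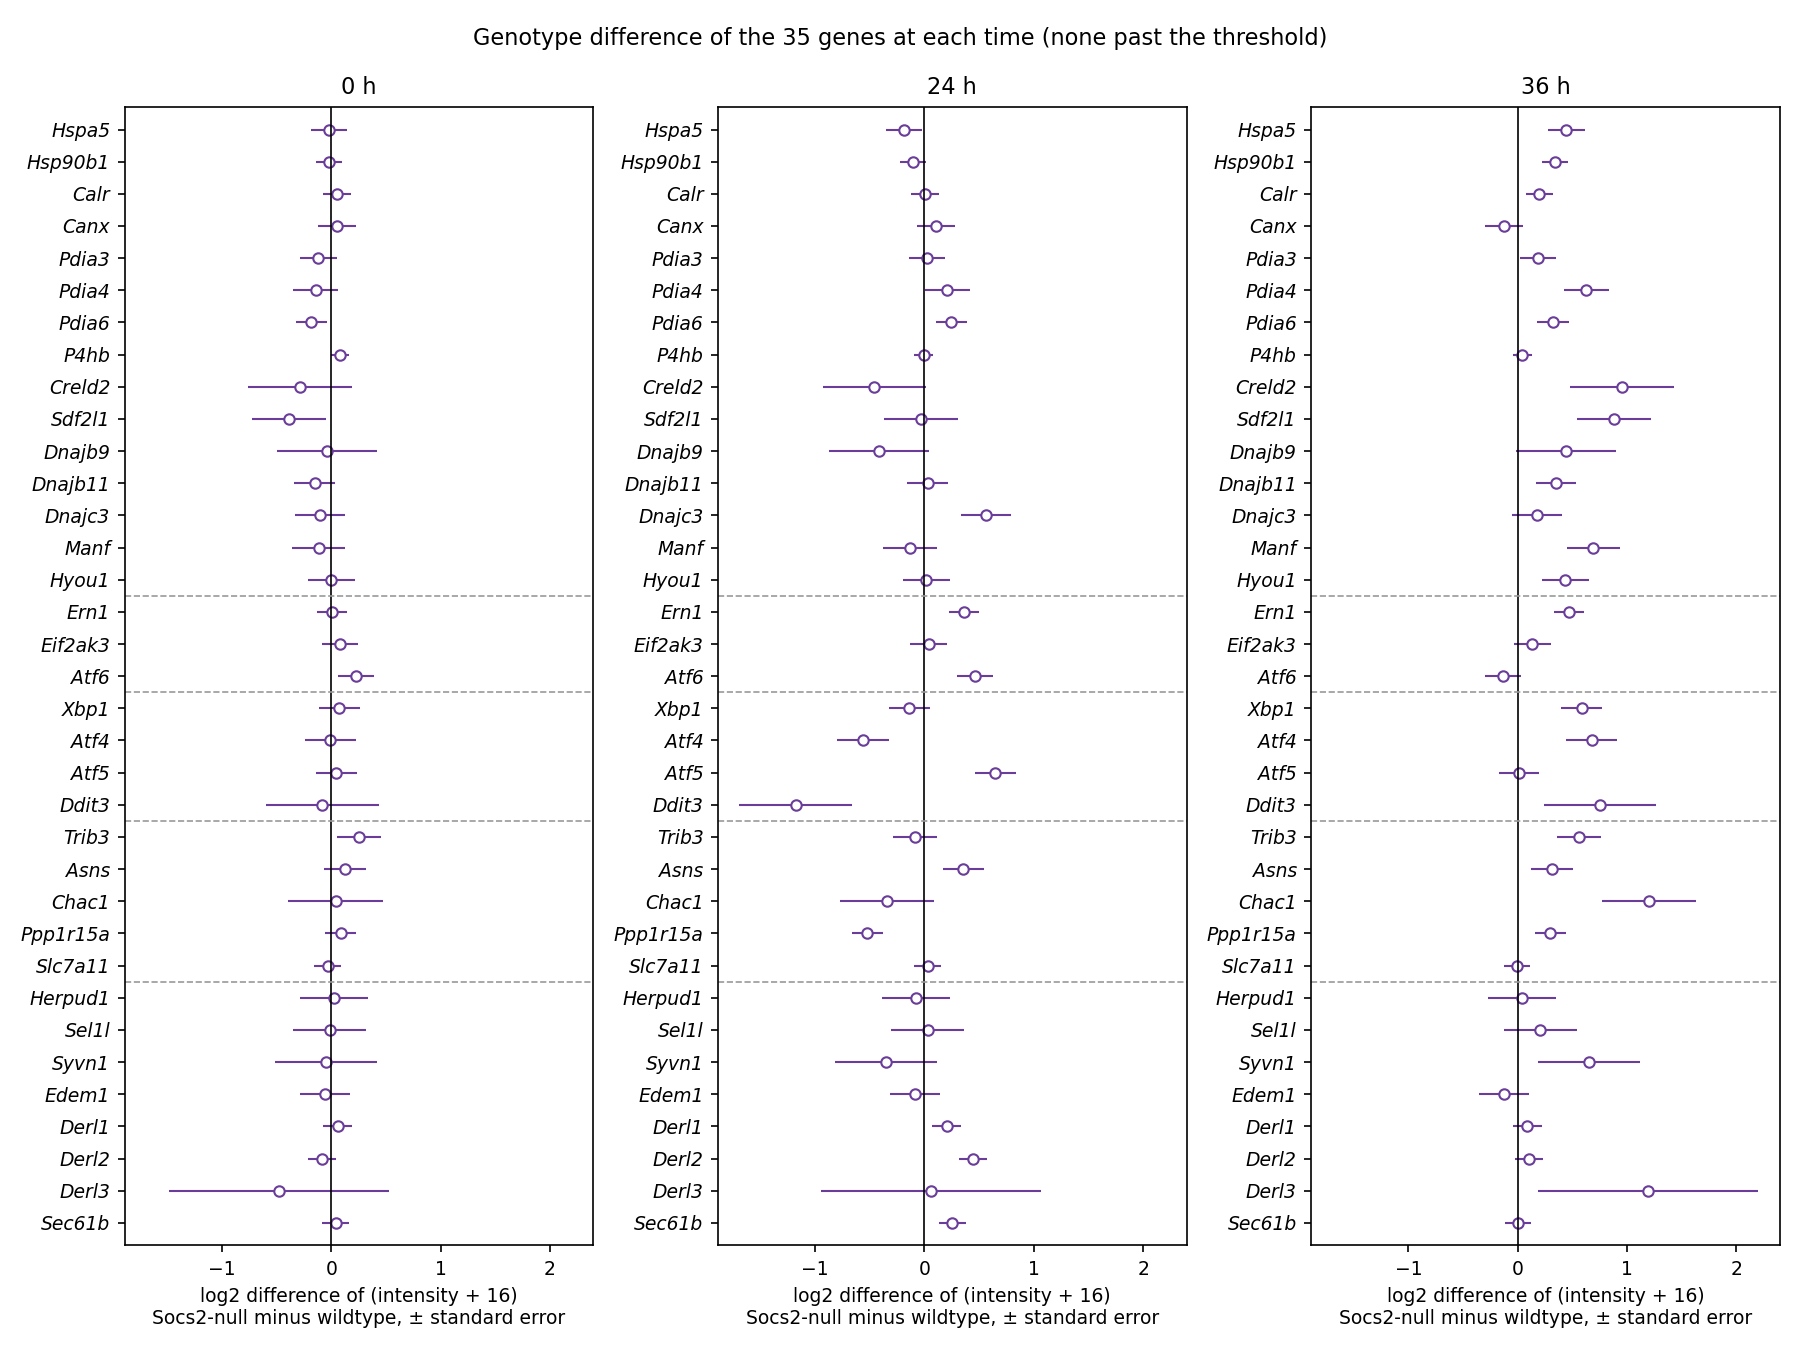
Log2 difference of intensity + 16, Socs2-null minus wildtype, with its standard error for each of the 35 genes at 0 h, 24 h and 36 h, with dashed lines between the roles. No gene passed an adjusted p of 0.05, the points at 0 h lie on both sides of 0, and at 36 h 31 of 35 lie right of 0.

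Probe sets of 1 gene did not always move alike. A second probe set of Hspa5 rose by 1.26 at 24 h in wildtype and 1.09 in Socs2-null liver, close to 1.16 and 0.99 for the one used. The second of Calr gave 0.86 and 0.90 against 0.88 and 0.83. The second of Syvn1 gave 1.31 and 0.81 against 1.37 and 1.07. The second of Hsp90b1 was at 0.55 and 0.39 at 24 h and 36 h in wildtype liver, where the one used gave 0.72 and 0.09. In Socs2-null liver it was at 1.08 and 1.04, where the one used gave 0.63 and 0.45. Its standard error was 0.30, against 0.12. Ern1 disagreed with itself, since its second brightest probe set changed by -0.12 and -0.41 at 24 h and 36 h in wildtype liver and another by 0.22 and 0.064. The second probe set of Derl2 was lower at 24 h in both genotypes, by -0.63 and -0.22, where the one used gave -0.28 and 0.25. That of Edem1 gave 0.33 and 0.38 at 36 h where the one used gave -0.23 and -0.30, and 1 of the 5 of Sel1l gave -0.45 and -0.22 at 24 h where the one used gave 0.70 and 0.75.

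Further genes of the pathways, taken from lists of known members, were counted in the same comparisons. The shares to read these counts against are those of all genes, 10.2 % higher and 15.6 % lower at 24 h and 5.69 % and 9.50 % at 36 h in wildtype liver, and 10.8 % and 13.5 % and then 9.84 % and 10.1 % in Socs2-null liver. Of the brighter genes 18.4 %, 10.1 %, 18.7 % and 16.8 % rose, in the same order. Of 21 other ER folding and glycoprotein processing genes, 11 rose and 1 fell in wildtype liver at 24 h and 4 rose and 2 fell at 36 h. In Socs2-null liver 13 rose and 1 fell at 24 h and 6 rose and 2 fell at 36 h. Of 19 other translocation and signal peptide genes, 11 and 7 rose at 24 h and 36 h in wildtype liver and 14 and 10 in Socs2-null liver, and 0 fell. Ssr2, a translocon-associated protein gene, went from 530.4 ± 6.89 to 1090.5 ± 24.8 (SD, n = 2 pools) at 24 h in wildtype and from 531 ± 50.3 to 1098 ± 87.5 in Socs2-null liver. Fkbp11, a prolyl isomerase gene of secretory tissue, went from 436 ± 9.38 to 984 ± 234 and from 458 ± 38.0 to 1385 ± 170.4.

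Of 13 other degradation genes, 4 rose and 1 fell in wildtype liver at 24 h, 1 rose and 1 fell at 36 h, and in Socs2-null liver 4 rose and 2 fell at each time. The 1 of 13 that rose at 36 h in wildtype liver (7.69 %) lay between the shares of all genes and of the brighter genes. Ube2g2, a ubiquitin-conjugating enzyme gene, rose at 24 h by 1.03 ± 0.15 in wildtype (adjusted p = 0.00142) and 1.01 ± 0.15 in Socs2-null liver (0.00118). Of 18 other sensors and regulators, 7 and 3 rose at 24 h and 36 h in wildtype liver and 4 and 3 in Socs2-null liver, and 1, 1, 1 and 2 fell. Of these 18 genes 22.2 % rose at 24 h and 16.7 % at 36 h in Socs2-null liver, near the shares of the brighter genes. Tmbim6, which encodes an ER membrane inhibitor of cell death, fell in all 4 comparisons with 0 h, from 4803 ± 26.8 to 3074 ± 225 at 24 h in wildtype and from 5134 ± 69.1 to 2762 ± 183 in Socs2-null liver (SD, n = 2 pools). Atf3, a factor induced by ATF4, was under background in wildtype liver at 0 h and rose to 135 ± 15.4 at 24 h (SD, n = 2 pools, adjusted p = 0.00444). In Socs2-null liver it read 39.6 ± 9.40 at 0 h and 52.3 ± 23.1 at 24 h (adjusted p = 0.562). Atf6b, with a smaller p than Atf3, rose at 24 h in both genotypes, by 0.87 ± 0.16 in wildtype (adjusted p = 0.00356) and 0.62 ± 0.16 in Socs2-null liver (0.0164).

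Of 19 other ATF4 targets, 8 and 4 rose at 24 h and 36 h in wildtype liver and 9 and 9 in Socs2-null liver, and 1, 0, 1 and 1 fell. Ddit4, an inhibitor of growth signalling through mTOR, rose in every comparison with 0 h, by 1.60 ± 0.22 and 1.42 ± 0.22 in wildtype liver (adjusted p = 0.000957 and 0.00207) and by 2.56 ± 0.22 and 2.75 ± 0.22 in Socs2-null liver (4.80e-05 and 3.50e-05). Its levels at 36 h were 390 ± 14.6 in wildtype and 1018 ± 340.4 in Socs2-null pools (SD, n = 2), a difference of 1.31 ± 0.22 (adjusted p = 0.126). Psat1, a serine synthesis gene, was under background at 0 h in both genotypes and read 300.2 ± 126 and 409.6 ± 184 at 24 h. None of the genes in these 5 lists was called between the genotypes in limma.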

How the data were processed

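Liver RNA from 6 groups of 2 pools was read on 12 one-colour arrays, with 10 µg of total RNA labelled for each array, per the labels' protocols. The files hold intensities that the authors had processed, linear and between 1 and 24717, used here as deposited. Their normalization is not given in the sources used here. Of 45141 probe sets, 28898 name 1 gene, 551 several and 15588 none, and 104 are controls; only those with 1 gene were used. For each of 17097 genes the probe set with the highest mean log2(value + 16) was kept. Group means were fitted in limma 3.58.1 (R 4.3.3) over all 12 arrays with 6 residual degrees of freedom, a variance trend and robust moderation, in 12 comparisons, 2-sided, each adjusted over all genes by the Benjamini-Hochberg method. A fold change is on the log2(value + 16) scale, which understates the change of dim genes. The fit was checked on simulated data. Named genes were the 35 members and, from each further list, the members with the smallest p. The members, lists and tests were chosen with earlier results of these data known. Alternatives were other scalings, pseudocounts, filters, probe set rules, variance models, a replicate block, a covariate and leaving out each array.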

Additional observations from a re-analysis of the deposited data

Results flagged for a closer look

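In 3 cases every array of wildtype liver moved one way against 0 h and every array of Socs2-null liver the other. Derl2, a derlin gene of ER-associated degradation, had at 24 h a log2 change of -0.28 in wildtype liver, against 0.25 in Socs2-null liver. The difference of these responses was 0.53 ± 0.18, which did not pass (limma, adjusted p = 1.00). At 36 h Derl2 was at -0.13 in wildtype liver and 0.062 in Socs2-null liver, and the difference did not pass (0.19 ± 0.18, adjusted p = 0.999). Pdia3, a disulfide isomerase gene read from 1 dim probe set, was at 36 h at -0.11 in wildtype liver and 0.19 in Socs2-null liver, and the difference of 0.31 ± 0.24 did not pass (adjusted p = 0.999). The second probe set of Derl2 was lower after hepatectomy in both genotypes.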

How the results depend on the processing

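Of 54 calls of the 35 genes in limma, 24 were kept in all alternatives run, 147 of 1330 alternative values lost a call and 0 reversed. Leaving out probe sets that can cross-hybridize, which left 28 of the genes measured, gave 10 called in wildtype liver at 24 h in place of 16, 2 in place of 5 at 36 h, and 8 in place of 14 in Socs2-null liver at 36 h. Array weights gave 26 in wildtype liver at 24 h, and the hybridization controls as a covariate gave 1 at 36 h. Between 24 h and 36 h in wildtype liver quantile normalization and array weights each gave 1, Hsp90b1, in place of 0. Leaving out each array in turn gave 11 to 22 called in wildtype liver at 24 h, 2 to 6 at 36 h, 0 to 9 between 24 h and 36 h, 12 to 22 in Socs2-null liver at 24 h, 7 to 16 at 36 h, and 0 to 2 between genotypes at 24 h. For these results the cause was not tested. The other genotype comparisons and Socs2-null liver between 24 h and 36 h gave 0 in all alternatives run. Replicate numbers did not pair the pools, since correlations of their deviations over 15 pairs of groups lay between -0.50 and 0.35 with a median of -0.019. With a replicate block the counts were 16, 5 and 0 in wildtype liver at 24 h, 36 h and between these times, 17, 11 and 0 in Socs2-null liver, and 0 in each genotype comparison. With 2 pools a group, small differences could not be called, and Slc7a11 was too dim to be read.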
